A study of Homo sapiens with 4 samples.

Results

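The genes described here were 9 coregulators that estrogen receptor alpha recruits: NCOA1, NCOA2, NCOA3, EP300, CREBBP, MED1, NCOR1, LCOR and NRIP1. They were taken by name from a table of 26364 gene symbols, and all 9 were among the 15599 genes with enough reads to be tested. Expression was measured by RNA sequencing of poly(A)-selected RNA from Ishikawa cells, a line from a human endometrial adenocarcinoma, to learn how a mutant receptor affects gene expression. All libraries came from cells with the Y537S mutation in ESR1, the gene for the receptor, so a difference between mutant and normal receptor is not part of these comparisons. Cells of 2 mutant clones, held in medium depleted of hormones, received 0.1% DMSO as vehicle or 10 nM estradiol (E2) for 8 h, which gave 2 DMSO and 2 E2 libraries. The table names each library by treatment and by a tag, A4 or B212, that appears in no label, so which tag is clone 1 and which is clone 2 is not known. The tag is taken as the clone of a library from the column names alone. Each combination of tag and treatment was 1 library, and nothing states that libraries of one treatment are separate cultures beyond being separate clones, so p-values measure only the spread between these libraries.

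Estrogen receptor alpha is a nuclear receptor that, once bound by estradiol, turns its ligand-binding domain into a docking surface for short leucine-rich motifs in coactivators. The p160 proteins NCOA1, NCOA2 and NCOA3 (SRC-1, GRIP1/TIF2 and AIB1) dock first and bring the histone acetyltransferases EP300 (p300) and CREBBP (CBP), and MED1 links the receptor to the Mediator complex and RNA polymerase II. NCOR1 is a scaffold for histone deacetylases on unliganded or antagonist-bound receptors, whereas LCOR and NRIP1 (RIP140) bind the agonist-bound receptor and repress. NRIP1 is itself a known estrogen target gene, and Y537S is known to hold the receptor in an active shape without ligand.

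The bases before some start sites of NRIP1 and NCOA1 and before that of NCOA3 are shown. They were chosen because NRIP1 was the member called for E2 and these genes were higher in B212. RefSeq windows (GRCh38.p14) were taken by symbol for 8 of the 9 genes, with 15 start sites in all. Windows of NCOA2 were not included, so its start sites were not examined. Each line holds the 250 bases before a start site, 5′ to 3′ on the strand of the gene, and capitals mark matches to either strand of the SP1 box GGGCGG or of one arm of the estrogen response element, GGTCA.
NRIP1, first start site, chr21:15065937-15066186, minus strand: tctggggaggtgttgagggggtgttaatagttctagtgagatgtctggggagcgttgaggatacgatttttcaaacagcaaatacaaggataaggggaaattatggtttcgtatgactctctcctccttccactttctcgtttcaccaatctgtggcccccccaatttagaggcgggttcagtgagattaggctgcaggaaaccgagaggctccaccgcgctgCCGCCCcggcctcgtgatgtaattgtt
NRIP1, second start site, chr21:15065001-15065250, minus strand: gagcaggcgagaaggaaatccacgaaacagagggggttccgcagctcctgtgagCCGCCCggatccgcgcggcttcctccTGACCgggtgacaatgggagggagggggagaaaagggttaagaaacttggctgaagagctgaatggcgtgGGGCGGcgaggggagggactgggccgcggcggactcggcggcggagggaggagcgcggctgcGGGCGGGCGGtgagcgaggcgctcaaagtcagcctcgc
NCOA1, first start site, chr2:24491004-24491253, plus strand: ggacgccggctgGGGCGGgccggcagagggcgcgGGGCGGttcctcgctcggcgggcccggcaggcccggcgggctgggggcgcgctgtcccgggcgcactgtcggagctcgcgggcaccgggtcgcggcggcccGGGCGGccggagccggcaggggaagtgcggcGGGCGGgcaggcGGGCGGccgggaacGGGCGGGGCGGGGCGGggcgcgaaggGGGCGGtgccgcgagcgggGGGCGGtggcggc
NCOA3, chr20:47501637-47501886, plus strand: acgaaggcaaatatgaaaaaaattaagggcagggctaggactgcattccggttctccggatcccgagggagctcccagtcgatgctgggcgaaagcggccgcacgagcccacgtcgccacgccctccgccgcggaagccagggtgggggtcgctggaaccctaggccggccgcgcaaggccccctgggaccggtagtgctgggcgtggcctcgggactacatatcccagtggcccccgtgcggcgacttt
The full palindromic estrogen response element, GGTCANNNTGACC, was in none of the 15 windows and in 0.0399% of all 35116 windows of this length. A single arm, which is also part of that palindrome, was in 2 of the 15 windows, the second NRIP1 window shown and the MED1 window, against 32.6% of all windows. The SP1 box was in 9 of 15 windows, against 42.6% of all, and the AP-1 site TGANTCA was in 0 of 15, against 6.57%. The windows with an SP1 box all belonged to NCOA1, LCOR, CREBBP and NRIP1, with more than 1 window for each. NCOR1, MED1, NCOA3 and EP300 had none, so these windows are not separate genes. The first NCOA1 window had 10 SP1 matches, some overlapping, and the NCOA3 window had none. GC content was 50.8% and 68.4% in the NRIP1 windows shown, 87.2% in that of NCOA1 and 66.4% in that of NCOA3. These matches describe letters in short windows, and no binding was measured here.

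The libraries held 71575816 to 85222856 counts. Markers of endometrial epithelium, 8 of 8 detected in each library, summed to 2239 to 3022 CPM (read counts scaled by library size). Those of leukocytes (5 genes) summed to 0.669 to 1.17 CPM and those of endothelium (4 genes) to 2.30 to 5.11 CPM, with CD3E and PECAM1 at 0 in all 4 libraries. The 6 stromal markers summed to 130 (DMSO) and 93.7 (E2) CPM in A4 and to 43.1 and 35.2 CPM in B212, nearly all of it COL1A1. Of the other stromal markers, COL1A2 had 22 to 84 counts, PDGFRA 21 to 47 and PDGFRB 1 to 13. DCN and LUM had at most 5 counts in a library. ESR1 stood at 110 and 97.0 CPM in A4 and at 107 and 86.5 CPM in B212 (DMSO and E2). Its log2 fold change for E2 was -0.24 with no term for the tag and -0.25 with it, adjusted p = 0.9999 and 0.0330 by edgeR, and 0.157 with a length and GC trend also removed. PGR, the progesterone receptor and a known estrogen target, had 3777 and 5914 counts in A4 and 480 and 1145 in B212, and ESR2 had 21 to 53 counts.

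All 9 coregulators were well expressed, between the 64.2th (NCOA2) and the 93.2th (NCOR1) percentile of tested genes by mean CPM. Scaled by transcript length, MED1 led with 29.3 ± 2.94 CPM per kilobase (mean and SD over the 4 libraries). NCOR1 followed at 18.9 ± 1.15, EP300 at 15.3 ± 0.708 and CREBBP at 14.2 ± 1.02 CPM per kilobase. NRIP1 stood at 11.8 ± 2.73, NCOA1 at 9.88 ± 1.61 and NCOA3 at 8.40 ± 0.706 CPM per kilobase. LCOR, at 5.13 ± 0.324, and NCOA2, at 4.92 ± 0.804 CPM per kilobase, were lowest. The libraries of MED1 and NCOR1 did not overlap, nor did those of NCOR1 and EP300, or of NCOA3 and LCOR. Every other pair of neighbours in this order overlapped, although EP300 was above CREBBP within each library. The order rests on the length used: per kilobase of coding sequence LCOR had 17.6 CPM against 17.4 for NCOA1, NRIP1 had 26.0 and CREBBP, at 20.9, stood above EP300, at 20.2. The longest LCOR transcript has 16004 bases and a coding part of 4671.

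**Figure D1:**
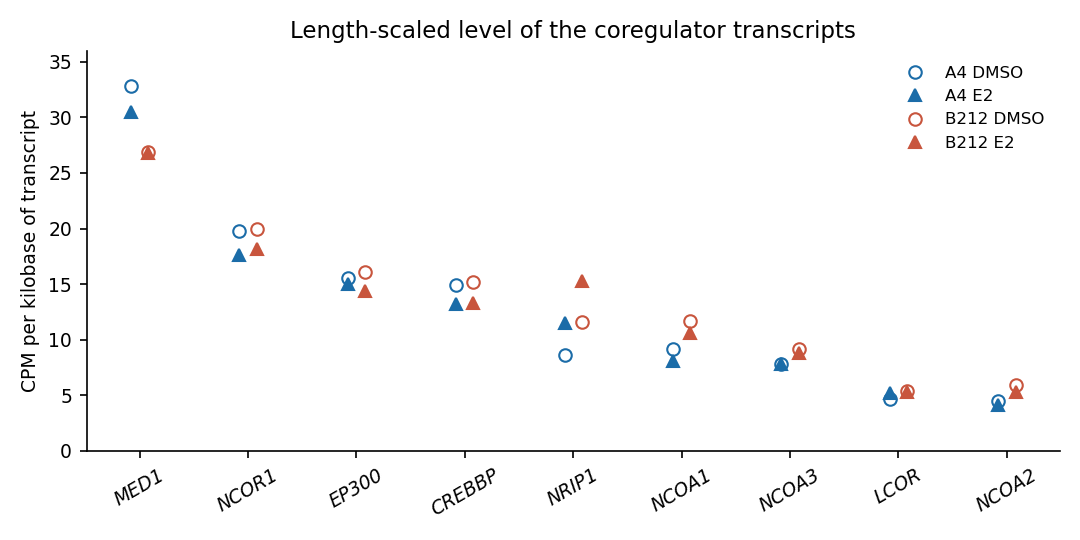
Length-scaled levels of the 9 coregulators. The y axis gives CPM per kilobase of the longest transcript, and each point is 1 library (open circles DMSO, triangles E2, blue A4, red B212). MED1 lies highest, at 26.8 to 32.9, and NCOA2 and LCOR lie lowest, at 4.11 to 5.88.

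Within the p160 family the proportions moved little. Of the length-scaled counts of the 3 genes, NCOA1 made up 42.8% (DMSO) and 40.3% (E2) in the A4 libraries and 43.8% and 42.9% in those of B212. NCOA3 made up 36.5% and 39.1% in A4 and 34.3% and 35.7% in B212. NCOA2 was the smallest part throughout, at 20.6% to 21.9%. NCOA1 was thus the most abundant of the 3 in every library by transcript length, and its share was lower with E2 within each tag.

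NRIP1 was the single member called for E2, higher, and only in the fits that take the difference between the tags into account. NRIP1, the agonist-dependent corepressor, had 4845 counts (DMSO) and 7228 counts (E2) in A4, and 7608 and 8595 counts in B212. Scaled for depth these were 66.2 and 88.1 CPM in A4 and 89.1 and 117 CPM in B212. E2 was higher within each tag, but the treatment groups overlapped, since the A4 E2 library lay just under the B212 DMSO library. On the log2 scale E2 lay above DMSO by 0.41 in A4 (95% interval from the counts alone 0.36 to 0.47), and the B212 value was 0.40 (0.35 to 0.44). With the tag as a replicate block the estimate was 0.40 ± 0.069 (SE), a 1.32-fold difference, with an adjusted p of 0.00174 by edgeR's quasi-likelihood method (3.79e-05 to 0.0179 over the 7 fits with the block). Without the block it was 0.40 ± 0.23 and was not called, adjusted p = 0.9999 by edgeR. In bulk RNA, fewer cells with a transcript and less of it per cell cannot be told apart.

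**Figure D2:**
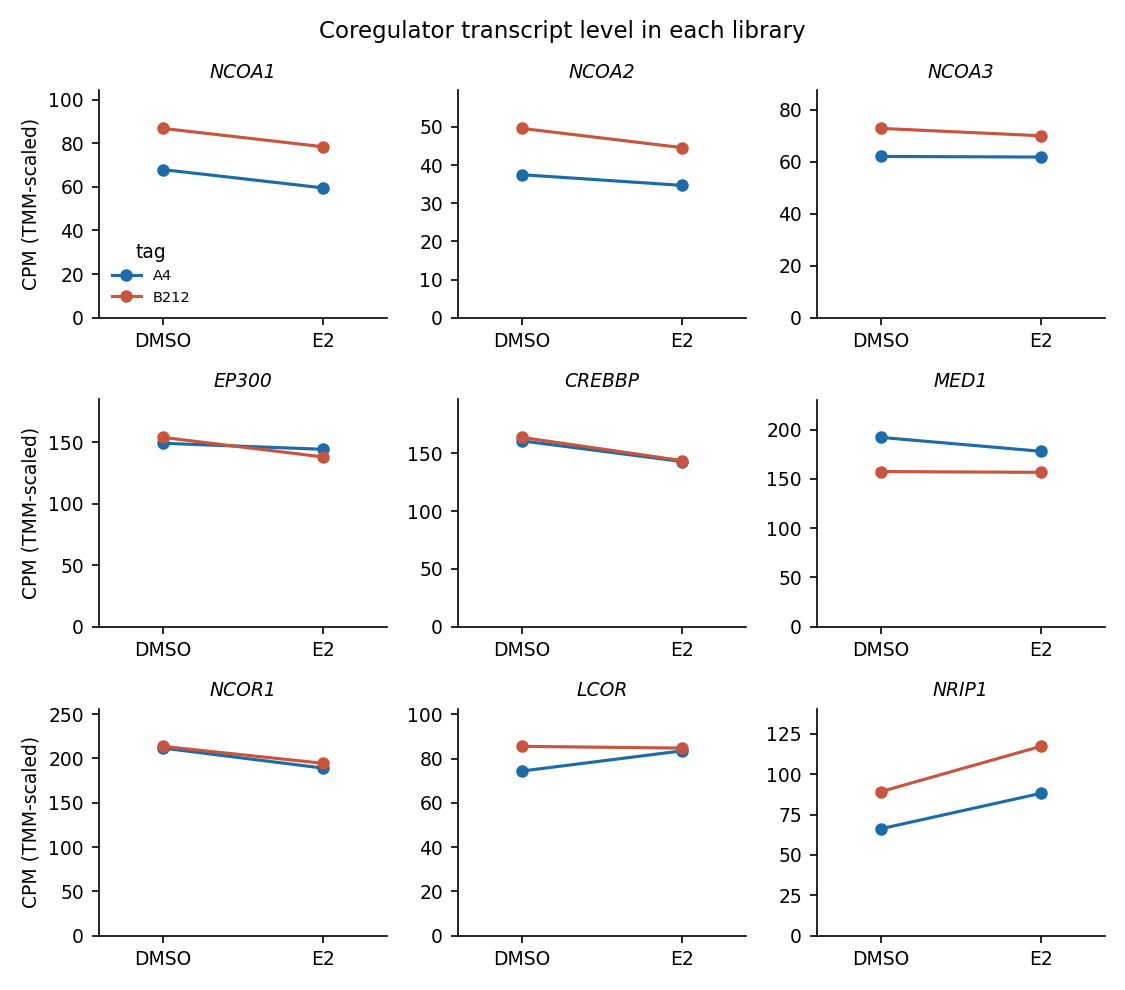
Transcript level of each coregulator by library. The y axes, from 0, give TMM-scaled CPM; each point is 1 library and lines join the libraries of a tag. NRIP1 is higher with E2 in both tags, and NCOA1, NCOA2, NCOA3 and NRIP1 are higher in B212 than in A4 in both treatments.

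Across the family, edgeR with no block called 0 of 9 members, and 0 of 9 had an unadjusted p under 0.05. It called 0% of the 15599 genes, with 150 at an unadjusted p under 0.05, while DESeq2 called 1 gene, no member, and limma-voom 0. In the fit with a replicate block for the tag, 1 of 9 members was called, higher, against 9.56% of all genes tested (6.13% higher and 3.44% lower). When libraries were scaled by total count only, the split over all genes went from 956 higher and 536 lower to 910 and 775, and the member called was again NRIP1. One gene of 9 is close to the share over all genes, so the count shows nothing particular to the set. The median log2 fold change of the 9 members was -0.10 with the block, beside -0.0081 over all genes.

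The acetyltransferases and NCOR1 were lower in both E2 libraries than in both DMSO libraries, without being called. CREBBP had 161 (A4) and 164 (B212) CPM in DMSO and 143 and 144 CPM in E2. Its log2 fold change with the block was -0.18 ± 0.068 (SE), adjusted p = 0.102 by edgeR. NCOR1 had 211.7 and 213.6 CPM in DMSO and 189.1 and 194.5 CPM in E2, with a log2 fold change of -0.15 ± 0.069 and an adjusted p of 0.178 by edgeR. EP300 had 149 and 154 CPM in DMSO and 144 and 138 CPM in E2, with a log2 fold change of -0.10 ± 0.069 and an adjusted p of 0.378 by edgeR. These were the 3 members whose treatment groups did not overlap, against 25.0% of all genes tested and 9.56% called. EP300 overlaps an antisense gene, EP300-AS1, which had 127 to 177 counts, against 10127 to 13145 for EP300. The strand setting of the counting is not known, so reads of the 2 genes cannot be told apart where they overlap. The pseudogene NCOR1P1 had 1 to 8 counts, against 14258 to 18237 for NCOR1.

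The coactivators that dock on the receptor gave small values in the same direction. NCOA1 had 67.9 (DMSO) and 59.5 (E2) CPM in A4 and 86.8 and 78.4 CPM in B212, a log2 fold change of -0.17 ± 0.071 with the block. NCOA2 had 37.5 and 34.7 CPM in A4 and 49.6 and 44.6 CPM in B212, a log2 fold change of -0.13 ± 0.077. NCOA3 stood at 62.1 and 61.8 CPM in A4 and at 72.9 and 70.0 CPM in B212, a log2 fold change of -0.032 ± 0.072. For these genes the libraries lay further apart between tags than between treatments, and the edgeR adjusted p-values were 0.139, 0.290 and 0.825. MED1, the Mediator subunit, had 192 and 178 CPM in A4 and 157 and 157 CPM in B212, a log2 fold change of -0.059 ± 0.069 with an adjusted p of 0.645 by edgeR. In all, 7 of 9 members were lower with E2 in both tags, as were 36.8% of all genes tested. In the blocked fit with a length and GC trend removed, 6 of the 9 had positive values.

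LCOR, the ligand-dependent corepressor, did not move alike in the 2 tags. It had 74.4 (DMSO) and 83.5 (E2) CPM in A4 and 85.5 and 84.7 CPM in B212, so that the A4 DMSO library stood below the other 3. The A4 libraries gave a log2 fold change of 0.17, those of B212 gave -0.013, and the fit with the block gave 0.077 ± 0.072, adjusted p = 0.548 by edgeR. The difference between the tags could not be tested with 1 library each.

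**Figure D3:**
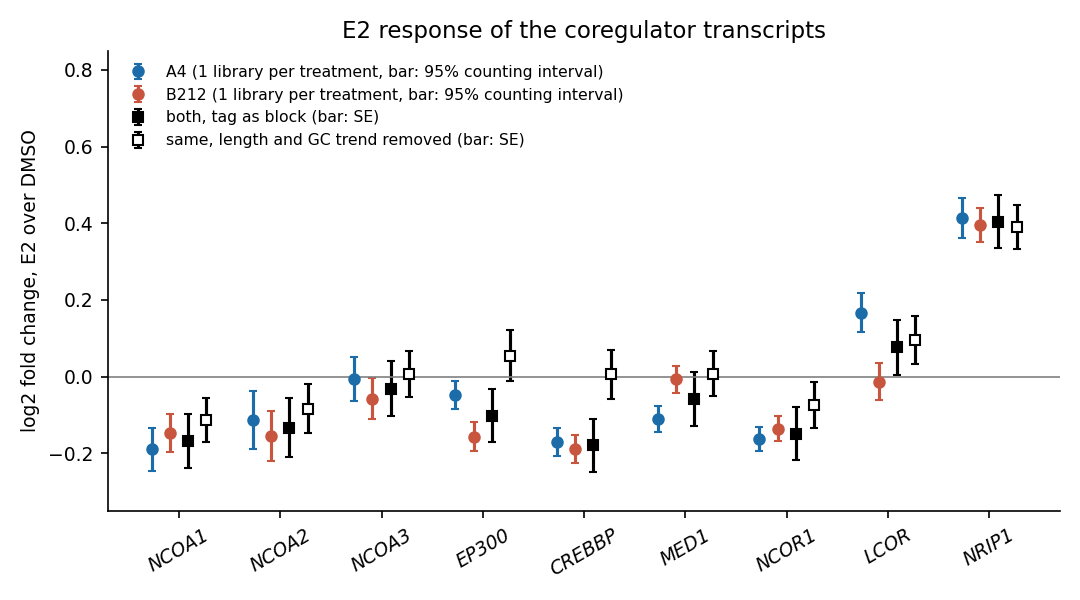
E2 over DMSO for each coregulator. The y axis is the log2 fold change; filled circles give A4 (blue) and B212 (red) with 95% intervals from the counts alone, squares the estimate over both with the tag as a block (bars are SE), and open squares the same after removal of a length and GC trend. NRIP1 lies at 0.39 to 0.41 in all 4, whereas EP300 and CREBBP move from -0.10 and -0.18 to 0.054 and 0.0057.

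These are long transcripts, and over all tested genes the E2 values tended to be lower for longer transcripts and for those with more GC. The 9 members measured 5844 to 16004 bases, against a median of 3289 over tested genes. Their median GC content was 43.98%, against 48.75% over tested genes. Across 14601 tested genes the E2 log2 fold change had a Spearman rho of -0.30 (A4) and -0.18 (B212) with transcript length, and of -0.33 and -0.17 with GC content. Genes of a library share its depth and preparation, so these correlations are a description. With a smooth trend on both removed, and with the block, CREBBP stood at 0.0057 ± 0.063, EP300 at 0.054 ± 0.067 and NCOR1 at -0.075 ± 0.059 on the log2 scale. For CREBBP the trend took -0.25 (A4) and -0.11 (B212), and for NRIP1 0.025 and 0.0082. For LCOR, the longest, it took -0.0065 and -0.025, so the amount did not follow length alone. NRIP1 kept a log2 fold change of 0.39 ± 0.057, with an adjusted p of 0.00161 by edgeR, and was again the 1 member called, against 3.61% of all genes in that fit. The median over the 9 members became 0.0066.

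Ratios within a library need no scaling between libraries. They move with either of their parts, and the length and GC trend was not removed from them. NRIP1 had 0.395 (DMSO) and 0.565 (E2) counts for each count of NCOA1, NCOA2 and NCOA3 together in A4, and 0.426 and 0.608 in B212. Both E2 libraries lay above both DMSO libraries, 0.586 ± 0.0303 against 0.411 ± 0.0218 (SD, n = 2), and the ratio was 1.43-fold higher with E2 in each tag. In the blocked fit NRIP1 itself was 1.32-fold higher. There NCOA1, NCOA2 and NCOA3 had log2 fold changes of -0.17, -0.13 and -0.032. The exact permutation test, two-sided, gave p = 0.333, the smallest that 2 against 2 libraries allow. NRIP1 against NCOR1 went from 0.313 to 0.466 in A4 and from 0.417 to 0.603 in B212, and there the treatment groups were also apart. NCOR1 against the 3 p160 genes stayed nearer its own tag, at 1.26 and 1.21 in A4 and 1.02 and 1.01 in B212. EP300 against CREBBP was 0.927 and 1.01 in A4 and 0.940 and 0.961 in B212. Of the 8 ratios and shares computed, 4 gave this smallest p for E2, and none can reach a threshold of 0.05 after or before adjustment.

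**Figure D4:**
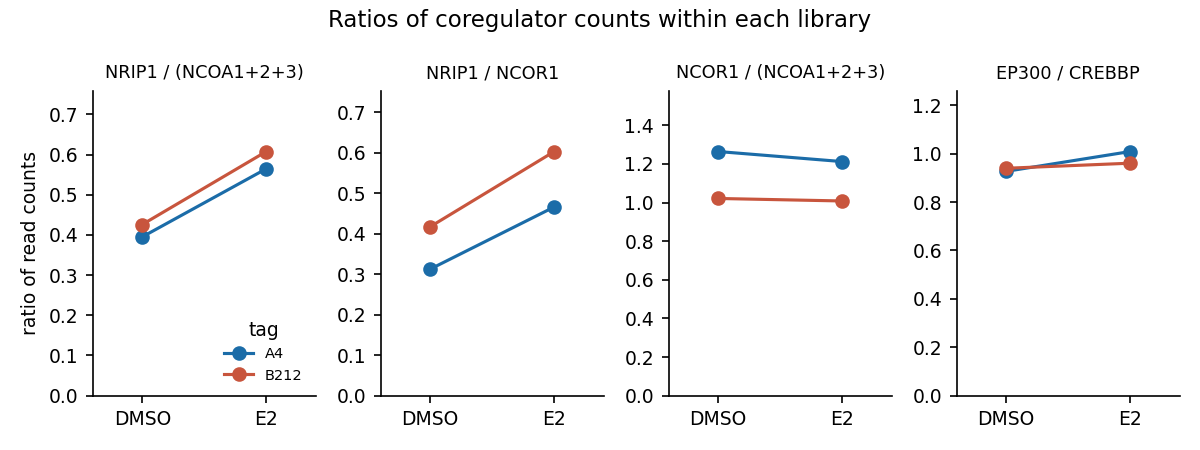
Ratios of read counts within each library. Each point is 1 library, the y axes start at 0 and lines join the libraries of a tag. NRIP1 relative to the p160 genes is at 0.395 and 0.426 in DMSO and at 0.565 and 0.608 in E2, and NCOR1 relative to the p160 genes differs between the tags more than between treatments.

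The second comparison asked how far the coregulators differed between the B212 and A4 libraries, with treatment as a covariate. The p160 coactivators and NRIP1 were higher in B212 and MED1 was lower, while NCOR1, EP300, CREBBP and LCOR were not called. By edgeR's quasi-likelihood test 5 of 9 members were called, 4 higher and 1 lower, against 51.0% of all genes (25.2% higher and 25.8% lower), so the count is close to the background. NRIP1 differed by a log2 fold change of 0.42 ± 0.069 (SE) with an adjusted p of 4.13e-05 by edgeR. Its level was higher in B212 in both treatments, at 89.1 against 66.2 CPM in DMSO and 117 against 88.1 CPM in E2. Fits with a library left out had no treatment term, and in them the treatments were unbalanced between the tags. For NRIP1 they gave 0.23 without A4 DMSO, 0.21 without B212 E2, 0.63 without A4 E2 and 0.58 without B212 DMSO. NCOA2 differed by 0.38 ± 0.077 and NCOA1 by 0.38 ± 0.071, with adjusted p-values of 3.27e-04 and 1.77e-04 by edgeR. NCOA3 differed by 0.21 ± 0.072, adjusted p = 0.0217 by edgeR. MED1 was below its A4 level in B212, at -0.24 ± 0.069 on the log2 scale, adjusted p = 0.00783 by edgeR, or 157 ± 0.541 against 185 ± 9.99 CPM (SD over 2 libraries of different treatment).

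NCOR1 and the acetyltransferases lay close together in the tags. NCOR1 averaged 200 ± 16.0 CPM in A4 and 204 ± 13.6 CPM in B212, and its log2 fold change was 0.027 ± 0.069. EP300 averaged 147 ± 3.45 and 146 ± 11.2 CPM, and CREBBP 152 ± 12.7 and 154 ± 14.2 CPM, with log2 fold changes of -0.0087 ± 0.069 and 0.017 ± 0.068. LCOR, at 78.9 ± 6.44 and 85.1 ± 0.549 CPM, had a log2 fold change of 0.11 ± 0.072, adjusted p = 0.208 by edgeR. With an SE of 0.07 on the log2 scale, differences of this size were not detectable. On the CPM scale, 6 members had tags that did not overlap, namely those called and LCOR, as had 67.5% of all genes.

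The calls of NCOA3, MED1, LCOR and NRIP1 depend on the processing. Scaling by total count only, which turned the split over all genes from 3927 higher and 4023 lower into 4760 and 3176, called 5 members higher and 0 lower: LCOR entered at 0.18 and MED1, at -0.17, was not called. With the length and GC trend removed 4 members were called, against 56.4% of all genes, and NCOA3 was not, at 0.11 ± 0.060 (adjusted p = 0.115 by edgeR). Dropping the treatment term, as leaving out a library requires, left NCOA1 and NCOA2 called, while NRIP1 (0.42, adjusted p = 0.115 by edgeR) and MED1 (-0.24, adjusted p = 0.0929) had folds like those with the term but were not called. Without the A4 DMSO library these were NCOA1 and NCOA2, without A4 E2 NCOA2, NRIP1 and MED1, and without B212 DMSO NRIP1 alone. Without the B212 E2 library 0 members were called by edgeR, when 3207 genes were. In those fits the single library left of a tag is assumed to vary like the other tag. The treatments were also unbalanced between the tags there. The stromal marker sum, nearly all COL1A1, was also lower in B212, and its part in these differences was not tested. COL1A2 was lower too, with 84 (DMSO) and 66 (E2) counts in A4 and 32 and 22 in B212. PDGFRA had 47 and 32 counts in A4 and 27 and 21 in B212, and PDGFRB 13 and 7, and 1 and 4. DCN and LUM were at or near 0.

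**Figure D5:**
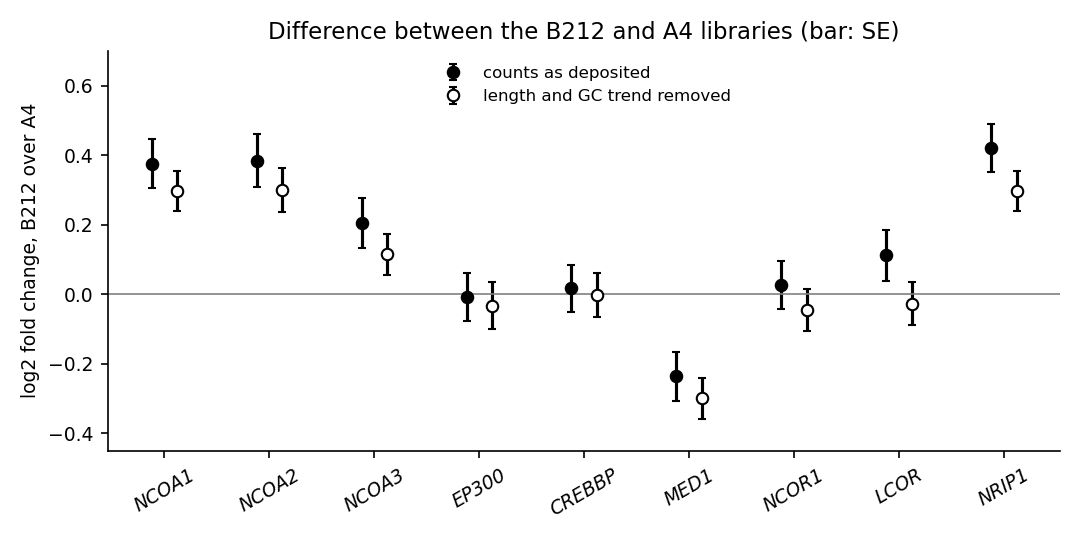
B212 over A4 for each coregulator. The y axis is the log2 fold change with treatment as a covariate, bars are SE, filled circles the counts as deposited and open circles with the length and GC trend removed. NCOA1, NCOA2 and NRIP1 lie at 0.38 to 0.42 and MED1 at -0.24, and with the trend removed at 0.30 and -0.30.

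Other genes of the coregulator machinery were read from fixed lists. In the blocked fit for E2, edgeR called 4 of 32 other coactivators, 2 higher and 2 lower, beside 9.56% of all genes. NCOA4, an androgen receptor coactivator and ferritin receptor, had 671 and 957 CPM in A4 and 616 and 989 CPM in B212, a log2 fold change of 0.60 ± 0.075. KMT2C, a histone H3 lysine methyltransferase with partial copies elsewhere in the genome, rose by 0.25 ± 0.076, with 93.4 and 123 CPM in A4 and 103 and 110 CPM in B212. CARM1, the arginine methyltransferase that binds p160 proteins, fell by 0.22 ± 0.068 and CCND1, cyclin D1, fell by 0.25 ± 0.076 on the log2 scale. With the length and GC trend removed 5 of the 32 were called, beside 3.61% of all genes, all higher, with NCOA4 (0.57) and KMT2C (0.29) among them and neither CARM1 nor CCND1. The edgeR adjusted p-values without the trend removed were 1.41e-04 (NCOA4), 0.0467 (KMT2C), 0.0468 (CARM1) and 0.0453 (CCND1). The median of the 32 was 0.023, beside -0.0081 over all genes.

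Among 32 Mediator subunits besides MED1, 3 were called for E2 with the block, close to the 9.56% over all genes. MED31 rose by 0.60 ± 0.13 and CCNC, the cyclin of the Mediator kinase module, by 0.27 ± 0.074, while MED16, a tail subunit, fell by 0.26 ± 0.080 on the log2 scale. MED31 was low, at 243 to 474 counts. The median of the list was -0.0027. With the trend removed 1 of 32 was called and none of these 3.

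Of 35 other corepressors 31 were tested, since NR0B1, NR0B2, NR2F2 and ZBTB16 had too few reads, and 5 were called for E2 with the block, 1 higher and 4 lower, beside 6.13% and 3.44% of all genes. RBBP7, a histone-binding subunit of deacetylase complexes, rose by 0.34 ± 0.070 and was higher within each tag, with 197 and 259 CPM in A4 and 252 and 308 CPM in B212. TLE1 and TLE3, Groucho-type corepressors, fell by 0.41 ± 0.11 and fell by 0.31 ± 0.075. The other 2, which were chosen here after their values were seen, were HDAC7, a class IIa deacetylase, and TBL1X, a subunit of the NCOR complex, at -0.26 and -0.28. The list median was -0.074. Scaled by total count only, 9 were called, 1 higher and 8 lower, and with the trend removed RBBP7 alone was called, at 0.27 (adjusted p = 0.0247 by edgeR).

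Of 22 subunits of the SWI/SNF remodelling complexes 2 were called for E2 with the block, close to the 9.56% over all genes. SMARCA4 (BRG1), an ATPase subunit, fell by 0.28 ± 0.070 and ACTL6A, an actin-related subunit, rose by 0.22 ± 0.070 on the log2 scale. With library sizes alone 2 were called, both lower, and with the trend removed 0 were called, with 4 at an unadjusted p under 0.05. With no block edgeR called 0 genes of these 4 lists, and 1 of their genes, among the other coactivators, had an unadjusted p under 0.05.

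Between the tags 51.0% of all genes were called (25.2% higher and 25.8% lower), and the counts of the 4 lists are to be read against that. Among the other coactivators 20 of 32 were called, 7 higher in B212 and 13 lower, and with library sizes alone 10 and 11. PPARGC1A (PGC-1 alpha), a coactivator of mitochondrial biogenesis, had 75 and 72 counts in A4 and 731 and 573 counts in B212, a log2 fold change of 3.11 ± 0.15. Its relative PPARGC1B went the other way, at -0.65 ± 0.096. CALCOCO1 was higher, at 1.05 ± 0.087, and the arginine methyltransferase PRMT1 lower, at -0.63 ± 0.070. The PPARGC1A libraries of the tags were far apart, while its E2 value with the block was -0.16 ± 0.14.

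In Mediator 12 of 32 subunits were called between the tags, again beside 51.0% of all genes, 4 higher in B212 and 8 lower, or 6 and 7 with library sizes alone. CDK19, a kinase of the Mediator kinase module, was higher by 0.80 ± 0.073 and MED13L by 0.35 ± 0.070, and MED12L was lower, at -0.64 ± 0.12, as was MED10, at -0.62 ± 0.081. MED1, which is not among these 32, was also called lower in B212. The 8 of 32 called lower is close to the 25.8% of all genes called lower. Among the corepressors 13 of 31 were called, beside the same 51.0%, 6 higher and 7 lower, and with library sizes alone 10 and 3. TLE1 had 294 and 203 counts in A4 and 2439 and 1760 counts in B212, a log2 fold change of 3.04 ± 0.12, whereas its paralogue TLE3 was lower, at -0.43 ± 0.075. NR2F1 (COUP-TFI), an orphan receptor, was higher by 2.13 ± 0.16, and HDAC3, the deacetylase bound by NCOR1, was lower, at -0.46 ± 0.070. In SWI/SNF 11 of 22 were called, close to that share, 3 higher and 8 lower, or 4 and 6 with library sizes alone, with SMARCC2 (0.25) and PHF10 (0.22) higher and DPF2 (-0.55) and SMARCD1 (-0.49) lower. No edgeR adjusted p of the genes named for this comparison in the 4 lists was above 0.0167, that of PHF10.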

How the data were processed

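RNA was sequenced from 4 libraries, 2 with DMSO and 2 with E2. The authors deposited unnormalized counts for every gene symbol, and totals of these whole numbers differ between libraries. HISAT2, SAMtools, featureCounts and DESeq2 and the build hg19 are named per the submitters' processing notes, and the strand setting and annotation are not given in the sources used here. A further 4 columns fit no sample's labels and were left out.

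Genes were kept by filterByExpr (minimum count 10) and tested with edgeR 4.0.16 (quasi-likelihood, TMM scaling, Benjamini-Hochberg over 15599 genes, threshold 0.05), in R 4.3.3; SE was derived from the estimate and the F statistic. The comparison with no block is the planned one. Same-tag libraries deviated together from their group means (r = 0.871 across genes, 1 independent value; the pairing comes from the column names), and the blocked fit was a listed alternative, given beside it; 95% intervals within a tag cover counting error only. DESeq2 1.42.0, limma 3.58.1 (voom), other scalings and filters, left-out libraries and a length and GC trend (mgcv 1.9.3) were alternatives. Lengths came from the longest GENCODE 29 transcript, coding preferred, for 93.6% of tested genes; that annotation and the RefSeq windows are on another build than the counts. Log2 CPM had a prior count of 2. Scripts were tested on simulated data.

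Members and lists were chosen with earlier results of these data known. Named from each list were up to 2 genes called in each direction with the largest change and a mean of at least 100 counts. Genes of like profile were to be named for members changed by 0.5 or more on the log2 scale in either direction, and no member reached it. Figures used Python 3.11.15 and matplotlib 3.10.9.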

Additional observations from a re-analysis of the deposited data

Results flagged for a closer look

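LCOR had E2 log2 fold changes of opposite sign in the A4 and B212 libraries, 0.17 and -0.013, a difference (B212 minus A4) of -0.18. From the counts alone the 95% intervals ran from 0.12 to 0.22 in A4 and from -0.062 to 0.036 in B212, the latter including 0. The difference itself was not tested, because the treatments had 1 library each in a tag. LCOR was the only one of the 9 members with opposite signs. Of all genes tested, 70.1% had the same direction in both tags.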

How the results depend on the processing

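For E2 the count of 0 genes with no block became 1 with DESeq2 and stayed 0 under the other alternatives with no block, the 4 left-out libraries included. With the replicate block edgeR called 1492 genes, 717 with DESeq2 size factors, 1685 with library size only, 1770 with no filter and 527 without the trend on length and GC; DESeq2 called 562 and limma-voom 1138. NRIP1 was called in all 7 fits with the block (log2 fold change 0.38 to 0.40) and in none without it, where leaving out libraries gave 0.18 to 0.63; no other member was called for E2 under any alternative. With the replicate block and the trend removed, the E2 log2 fold changes of NCOA3 (0.0066), EP300 (0.054), CREBBP (0.0057) and MED1 (0.0081) turned positive. Leaving out libraries turned NCOA1 (-0.38 to 0.020), NCOA2 (-0.33 to 0.079), NCOA3 (-0.14 to 0.087), MED1 (-0.20 to 0.088) and LCOR (-0.024 to 0.18), in fits that also lose the balance of the tags.

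Between the tags the 7950 genes became 4456 with no treatment term and 3094 to 5639 with 1 library left out. Reversed values were those of members near 0: with the trend removed NCOR1 (-0.045), CREBBP (-0.0021) and LCOR (-0.028), with library size only EP300 (0.058), with no filter CREBBP (-0.0048), and with libraries left out NCOR1 (-0.069 to 0.11), EP300 (-0.11 to 0.069) and CREBBP (-0.11 to 0.11). The cause of these changes was not tested. NCOA1 and NCOA2 were called in all 8 fits on 4 libraries, NRIP1 in 7, MED1 in 6 and NCOA3 in 4. Coding length is shorter than transcript length for each member, so with it every level per kilobase had to rise. Each rose by more than its SD. With a prior count of 0.5 no difference between the tags changed sign.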
